A study of Mus musculus with 22 samples.

Results

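A group of 33 interferon-stimulated genes was followed through bulk RNA, chromatin, whole-liver RNA, double-stranded RNA and single cells of mouse fetal liver with and without Mettl3. They were chosen by gene symbol as interferon-induced genes outside the best-known Oas, Ifit, Gbp and Isg15 families, and are 33 of the 52459 genes in the bulk and liver tables. The symbols are Ifi44, Ifi27, Ifi35, Bst2, Xaf1, Parp9, Parp12, Parp14, Dtx3l, Lgals3bp, Lgals9, Phf11d, Sp100, Samd9l, Znfx1, Helz2, Nmi, Epsti1, Slfn2, Slfn5, Slfn8, Tor3a, Trafd1, Shisa5, Mx1, Mx2, Ddx60, Tdrd7, Rnf213, Ly6e, Ly6a, Pml and Daxx. All 33 are listed in the bulk, liver and H3K4me3 tables, and 32 in the single-cell table, which does not list Phf11d.

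Embryos were at E14.5. The KO embryos were Vav-Cre Mettl3fl/fl, so that floxed Mettl3 is cut by a Cre recombinase under the Vav promoter, which is active in blood cells, and the WT embryos were Mettl3fl/fl without Vav-Cre. LSK cells are sorted cells without lineage markers that carry Sca-1 and c-Kit, and hold the blood stem cells and early progenitors. They gave bulk RNA-seq (3 KO and 3 WT libraries), H3K4me3 CUT&RUN (2 KO and 2 WT) and single-cell libraries (2 KO and 2 WT). Whole liver holds blood cells too, beside hepatocytes and stroma that mostly do not use the Vav promoter. It gave J2 pull-down RNA and total RNA called INPUT (2 KO and 2 WT livers each).

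Interferons bind receptors at the cell surface, the kinases Jak1 and Tyk2 then activate transcription factors, and these with Irf9 switch on genes that carry an interferon response element near their start. Many of the induced proteins act against viruses: Mx GTPases block viral particles, Bst2 (tetherin) holds budding virions on the cell, and the Parp9 and Dtx3l pair modifies proteins with ADP-ribose and ubiquitin. Mettl3 carries the catalytic site of the complex that writes N6-methyladenosine into RNA, H3K4me3 marks the starts of active genes, and J2 is an antibody that binds double-stranded RNA.

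A RefSeq promoter window of 300 bases (250 before the annotated start and 50 after it, build GRCm38.p6) was at hand for 25 of the 33 members. The core of the interferon response element was searched as GAAANNGAAA, or TTTCNNTTTC on the other strand. It was found in 6 of the 25 member windows (24%), namely in Bst2, Ddx60, Slfn5, Slfn8, Lgals9 and Shisa5, and in 1131 of the 32851 windows of all genes (3.44%). The windows with 2 or more matches were 3 of 25 (12%) among members and 0.225% among all windows. The STAT core TTCNNNGAA, which reads the same on both strands, was in 12% of member windows and 8.3% of all, and it overlapped an interferon core in Bst2 and in Shisa5. Windows are shown for 3 members with a core whose RNA rose in KO LSK cells (Bst2, Ddx60 and Slfn5), for Lgals9, which has 2 cores and whose RNA change did not pass the test, and for Lgals3bp and Ifi44, which have no match and whose RNA rose. Each is 5′ to 3′ along its gene, and capitals mark the core.
Bst2: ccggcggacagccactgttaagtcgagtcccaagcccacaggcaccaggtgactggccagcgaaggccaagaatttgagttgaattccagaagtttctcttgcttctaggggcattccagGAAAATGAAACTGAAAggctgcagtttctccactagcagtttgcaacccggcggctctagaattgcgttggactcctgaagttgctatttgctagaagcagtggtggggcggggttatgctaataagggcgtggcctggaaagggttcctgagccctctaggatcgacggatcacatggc
Ddx60: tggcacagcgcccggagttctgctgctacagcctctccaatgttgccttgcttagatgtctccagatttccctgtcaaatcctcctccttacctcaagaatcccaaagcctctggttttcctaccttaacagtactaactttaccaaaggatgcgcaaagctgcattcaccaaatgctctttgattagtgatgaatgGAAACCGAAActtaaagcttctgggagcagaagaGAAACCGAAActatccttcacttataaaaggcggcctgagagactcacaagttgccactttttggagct
Slfn5: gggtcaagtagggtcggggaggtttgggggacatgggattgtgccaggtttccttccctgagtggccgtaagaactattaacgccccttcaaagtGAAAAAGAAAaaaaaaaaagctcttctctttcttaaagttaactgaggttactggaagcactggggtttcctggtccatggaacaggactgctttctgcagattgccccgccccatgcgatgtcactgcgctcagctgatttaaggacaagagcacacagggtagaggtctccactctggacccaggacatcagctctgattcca
Lgals9: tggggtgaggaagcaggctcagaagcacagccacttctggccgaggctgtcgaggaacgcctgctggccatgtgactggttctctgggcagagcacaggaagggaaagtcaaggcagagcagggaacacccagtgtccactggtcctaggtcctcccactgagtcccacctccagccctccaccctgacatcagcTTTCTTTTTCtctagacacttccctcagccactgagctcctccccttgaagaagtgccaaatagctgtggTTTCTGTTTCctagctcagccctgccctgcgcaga
Lgals3bp: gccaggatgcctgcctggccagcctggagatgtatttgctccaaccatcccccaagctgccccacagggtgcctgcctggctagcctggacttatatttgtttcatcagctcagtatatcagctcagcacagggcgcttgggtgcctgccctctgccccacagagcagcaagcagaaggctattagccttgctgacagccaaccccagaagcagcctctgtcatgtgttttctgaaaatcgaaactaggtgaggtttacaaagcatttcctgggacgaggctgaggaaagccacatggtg
Ifi44: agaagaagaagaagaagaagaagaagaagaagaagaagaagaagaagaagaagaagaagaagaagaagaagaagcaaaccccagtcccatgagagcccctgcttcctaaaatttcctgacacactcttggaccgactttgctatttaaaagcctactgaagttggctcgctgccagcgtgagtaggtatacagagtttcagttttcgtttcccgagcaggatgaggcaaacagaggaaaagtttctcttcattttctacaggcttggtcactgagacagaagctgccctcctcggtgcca
With the start as 0, the first base of the core lies at -130 and -124 in Bst2 (chr8:71537423-71537722, minus strand), where the matches overlap, at -53 and -19 in Ddx60 (chr8:61927837-61928136, plus strand) and at -155 in Slfn5 (chr11:82951852-82952151, plus strand). In Lgals9 (chr11:78984875-78985174, minus strand) both matches, at -55 and 15, are on the other strand. The windows of Lgals3bp (chr11:118401910-118402209, minus strand) and Ifi44 (chr3:151749861-151750160, minus strand) do not hold these letters. RNA in LSK cells was called higher for 4 of the 6 members with a core and for 15 of the 19 without one.

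Mettl3 itself was read first in each assay. In bulk LSK RNA it had 4.13, 6.31 and 5.52 CPM (counts scaled to a common library size) in KO libraries, against 43.0, 43.0 and 33.2 CPM in WT libraries. In INPUT it had 6.70 and 26.9 CPM in the livers labelled KO, against 29.4 and 24.9 CPM in those labelled WT, so the second liver labelled KO was not below both WT livers. J2 had 46.2 and 34.6 CPM in livers labelled KO, against 25.5 and 30.2 CPM in those labelled WT. In the single-cell sums it had 64.3 and 52.2 CPM in libraries labelled KO, against 36.3 and 33.3 CPM in those labelled WT, and these J2 and single-cell values go against the labels. The sources used here do not give the deleted exons or which part of a transcript the capture beads read, so a count outside the deletion would check nothing, and the libraries of these assays are called by their labels. Bulk libraries held 20088100 to 40641081 counts, the strongest H3K4me3 windows 11508749 to 14451593, INPUT 3100910 to 4120864, J2 3873688 to 5251496 and the single-cell sums 7264127 to 11638238. Transcripts of Xist and of Y-linked genes put both single-cell libraries labelled KO with females and both labelled WT with males, so a difference between sexes and one between genotypes cannot be told apart in those sums, while in INPUT and J2 each genotype had 1 male and 1 female liver. The libraries are described as biological replicates, and 4 of the 6 bulk libraries held at least 1000 Xist counts and at least 1000 Y-linked counts. Those 4 thus held RNA of both sexes, and so of more than 1 embryo. How many embryos went into each library is not given in the sources used here, so p-values measure the spread between these libraries.

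In LSK RNA most of the 33 genes were higher without Mettl3. The rise passed the test for 26 of 33 members (quasi-likelihood test of edgeR, p-values adjusted by Benjamini and Hochberg over all genes, threshold 0.05), and no member was called lower; over all 14405 genes tested, 21.6% were called higher and 22.6% lower. The median log2 fold change was 0.87 over the members and -0.02 over all genes. For 27 members every KO library was above every WT library, as for 26.8% of all genes. Antiviral effectors rose in 11 of 12 cases, the ADP-ribosylation genes in 4 of 4, signal adaptors and others in 7 of 9, nuclear body genes in 2 of 4 and surface or secreted proteins in 2 of 4.

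The largest rise was that of Ifi44 (chromosome 3), a cytoplasmic protein induced by type I interferon. It had 3.76, 11.9 and 8.65 CPM in KO libraries, against 0.786, 1.05 and 0.841 CPM in WT libraries. The groups did not overlap, and its log2 fold change was 3.15 (SE 0.41, adjusted p 0.000383). Slfn5, a Schlafen family gene on chromosome 11, followed with 64.0, 80.7 and 78.0 CPM in KO libraries, against 15.2, 12.5 and 8.71 CPM in WT libraries, or 2.60 on the log2 scale (SE 0.18, adjusted p 2.77e-05). Its RefSeq span overlaps that of Slfn5os, named as antisense to it, and with the strand setting not given, their reads cannot be told apart. The Mx GTPases lie side by side on chromosome 16. Mx2 had 3.13, 5.67 and 5.37 CPM in KO and 2.36, 0.781 and 1.14 CPM in WT libraries, and Mx1 had 10.7, 12.0 and 11.7 CPM in KO and 6.76, 3.21 and 1.73 CPM in WT libraries. Their log2 fold changes were 1.71 (SE 0.39, adjusted p 0.00663) and 1.52 (SE 0.36, adjusted p 0.00797); in both genes WT 1 was the highest WT library, and the KO libraries lay above it.

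Lgals3bp (chromosome 11), a secreted glycoprotein that binds galectins, had 142, 180 and 170 CPM in KO libraries, against 43.7, 50.9 and 57.3 CPM in WT libraries, or 1.70 on the log2 scale (SE 0.12, adjusted p 2.77e-05). Ifi27 (chromosome 12), a small mitochondrial protein gene, had 35.9, 46.7 and 44.5 CPM in KO and 15.1, 12.3 and 13.7 CPM in WT libraries. Its log2 fold change was 1.63 (SE 0.12, adjusted p 3.49e-05), and its RefSeq span lies within that of its paralog Ifi27l2a, so the counting could split reads between them. Xaf1, which binds the caspase inhibitor Xiap, had 14.1, 21.5 and 20.4 CPM in KO and 7.76, 5.25 and 5.89 CPM in WT libraries (log2 fold change 1.56, SE 0.20, adjusted p 0.000317). In each of these 3 genes the lowest KO library was well above the highest WT library.

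Ly6a encodes Sca-1, the antigen used in the sort, so its RNA was read in cells already chosen for the protein. It had 12.7, 24.4 and 20.4 CPM in KO libraries, against 4.93, 7.06 and 7.67 CPM in WT libraries, or 1.55 on the log2 scale (SE 0.25, adjusted p 0.00108). KO 1 was the lowest of the KO libraries for Ly6a, as it was for 30 of the 33 members, and KO 2 was the highest KO library for 24. Bulk KO 1 was also the 1 KO library with Xist and no Y-linked counts. Bulk WT 3 had 3 Xist counts and 3655 Y-linked counts, so the mix of sexes differed between the groups. The part of sex in these values was not tested. Without KO 1 the test called 29 members.

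Among the remaining antiviral genes, Slfn2 (1.44) and Bst2 (1.35) rose by about as much on the log2 scale as the RNA helicase Ddx60 (1.31), while the giant ubiquitin ligase Rnf213 (0.99), Tdrd7 (0.88), the helicase-like Znfx1 (0.74) and Helz2 (0.64) and Slfn8 (0.43) rose less. The log2 fold changes of the ADP-ribosylation genes were 1.09 for Parp12, 0.95 for Parp9, 0.93 for its partner Dtx3l and 0.60 for Parp14. Parp9 and Dtx3l overlap at their starts, and the strand setting of the counting is not given in the sources used here. Daxx, a histone chaperone of nuclear bodies, had 114, 115 and 114 CPM in KO libraries, against 64.5, 61.0 and 62.4 CPM in WT libraries. The groups were far apart, at 0.87 on the log2 scale (SE 0.06, the smallest of the 33 members, adjusted p 2.77e-05), and Sp100 of the same bodies rose by 0.59. Trafd1, a brake on Toll-like receptor signalling, had 55.6, 58.9 and 56.7 CPM in KO libraries, against 48.3, 41.0 and 40.3 CPM in WT libraries (log2 fold change 0.40, SE 0.09, adjusted p 0.00523). The calls of Slfn8 and Sp100 were close to the threshold and were lost under 5 and 4 alternatives (adjusted p 0.0644 to 0.122 and 0.0560 to 0.0727). The rest of the members that rose were Tor3a (0.74), Ifi35 (0.54) and Epsti1 (0.53).

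The 7 members that did not pass were Phf11d (log2 fold change 0.71), Samd9l (0.41), Nmi (0.19), Ly6e (0.15), Shisa5 (0.07), Pml (0.05) and Lgals9 (-0.25). Pml, the protein that builds the nuclear bodies, had 118, 114 and 111 CPM in KO libraries, against 97.7, 114 and 121 CPM in WT libraries, and the groups overlapped. Lgals9, a secreted galectin, had 185, 214 and 205 CPM in KO libraries, against 198, 242 and 278 CPM in WT libraries (adjusted p 0.115). With the replicate number as a block, Samd9l was called higher (adjusted p 0.0355) and Lgals9 lower (adjusted p 0.0259), which made 27 members higher and 1 lower. The Schlafen, Mx, Sp100, Phf11 and Ly6 families have close paralogs, and reads shared between copies make their levels uncertain.

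**Figure D1:**
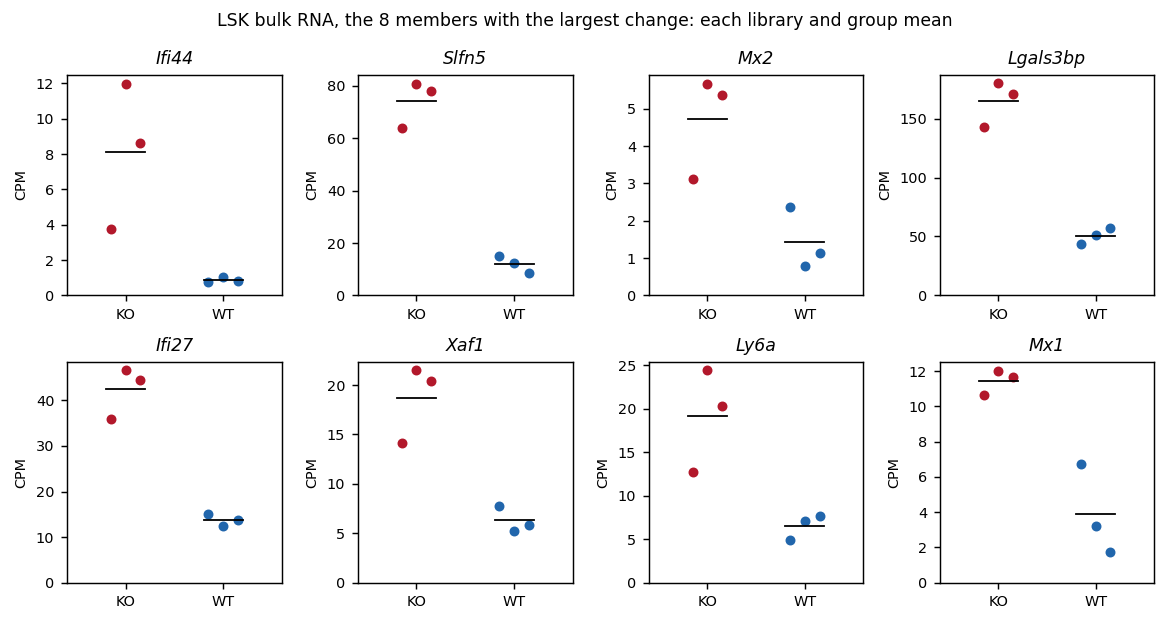
CPM (vertical axes, from 0) of the 8 members with the largest called change in LSK bulk RNA, with each KO library (red) and each WT library (blue) as a point and the group mean as a line. No WT library reaches a KO library in any of the 8 genes, and KO 1, drawn first in its group, is the lowest KO library in all of them.

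Most of the classical interferon genes moved with the members. Of 37 other interferon pathway genes, chosen as the classical Oas, Ifit, Irgm, Gbp, Isg15 and RNA sensor genes, 33 were called higher in LSK RNA and 0 lower, with a median log2 fold change of 1.64. Of 11 receptor and signal genes, 4 rose (among them Ifngr1 by 0.85, Irf9 by 0.70 and Ifngr2 by 0.42 on the log2 scale) and 3 fell, against 22.6% of all genes called lower (Jak2 at -0.40, Tyk2 at -0.27 and Ifnar2 at -0.18). Of 11 interferon ligand genes none passed the filter on low counts: 9 had 0 counts in every bulk library, while Ifnb1 had 1 count and Ifng 2 counts, all in WT 1. In bulk samples, fewer cells of a type and less RNA per cell cannot be told apart. Summed CPM of 5 granule genes of granulocyte progenitors was 3735 to 3799 in KO and 1520 to 1671 in WT libraries, with 4 of the 5 called higher, while all 5 stem genes and all 4 lymphoid genes tested were called lower. The 8 macrophage genes summed to 224 to 234 CPM in KO and 148 to 221 CPM in WT libraries, with 1 called higher and 2 lower. Csf1r, the 1 called higher, averaged 207 CPM in KO and 157 CPM in WT libraries, while Adgre1 and C1qc were called lower. Of the dendritic cell genes, 5 of 7 were called lower, Bst2 being the 1 called higher. The part of these shifts in the members' rise was not tested.

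The second question was whether the start of each gene changed its H3K4me3 along with its RNA. CUT&RUN counts in windows of 3 kb were read at the window with the highest mean count of each gene. The mark was called higher at 15 of the 33 members and lower at 1, against 3.22% of 51039 windows called higher and 4.66% called lower. The median log2 fold change was 0.59 over members and -0.15 over all windows. In 30 members both KO libraries were above both WT libraries, as in 27.4% of all windows. That share covers windows of every strength and was not taken among the stronger windows alone. Windows differ by strength: the 15960 whose mean log2 CPM reached 4 had a median of 0.31 and 5.70% called higher, while the 28 members among them had a median of 0.60 and 14 called higher.

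Lgals3bp had the largest change of the mark. Its window held 40.0 and 35.9 CPM in KO libraries, against 15.8 and 12.6 CPM in WT libraries, or 1.42 on the log2 scale (SE 0.18, adjusted p 2.74e-12 in edgeR). Ifi27 had 13.7 and 17.0 CPM in KO and 5.87 and 5.92 CPM in WT libraries (1.39, SE 0.18, adjusted p 1.71e-11). Sp100 had 29.9 and 26.0 CPM in KO and 16.6 and 9.17 CPM in WT libraries (1.11, SE 0.17, adjusted p 3.19e-08), a larger log2 difference than its RNA showed. In these 3 genes no WT library reached a KO library. Xaf1 (0.95), Slfn2 (0.92), Bst2 (0.81), Slfn5 (0.77), Ddx60 (0.69), Mx2 (0.69), Helz2 (0.68), Epsti1 (0.67), Slfn8 (0.67), Samd9l (0.65), Parp12 (0.62) and Shisa5 (0.59) were the other members called higher.

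The member called lower, Phf11d, a gene with a PHD finger, had a weak window of 0.817 and 1.02 CPM in KO libraries, against 1.93 and 2.22 CPM in WT libraries, from 10 and 14 counts in KO and 28 and 30 counts in WT. Its log2 fold change was -1.16 (SE 0.38, adjusted p 0.0396), its call was lost under 5 alternatives (adjusted p 0.0780 to 0.332), and the 35079 windows under a mean log2 CPM of 4 had a median of -0.41. Mx1 had 11.8 and 8.0 CPM in KO and 10.8 and 7.69 CPM in WT libraries, and the groups overlapped (0.09, SE 0.18). The count of members called rests on single libraries. It was 6 without WT 2 and 7 without KO 1, and 8 when the stronger windows, from a mean log2 CPM of 4, were fitted alone. In the same libraries 3 of 5 granule genes and 5 of 5 late neutrophil genes had a higher mark and 0 of 5 stem genes did; their part was not tested.

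Set side by side, 13 members were called higher in both RNA and mark. This is 50% of the 26 called in RNA and 86.7% of the 15 called in the mark. The 13 were Bst2, Ddx60, Epsti1, Helz2, Ifi27, Lgals3bp, Mx2, Parp12, Slfn2, Slfn5, Slfn8, Sp100 and Xaf1. Calls of the mark were lost for Ddx60, Epsti1, Mx2, Parp12 and Slfn8 when the stronger windows were fitted alone. DESeq2 lost those of Ddx60, Epsti1 and Slfn8. Leaving out 1 library lost the mark calls of Bst2, Ddx60, Epsti1, Helz2, Mx2, Parp12, Slfn2 and Slfn8. The RNA calls of Slfn8 and Sp100 were lost under 5 and 4 alternatives. The bulk and CUT&RUN libraries share no sample. Since 26 of the 33 members were called in RNA and 15 in the mark, such an overlap needs no link between the assays. It was not tested. Samd9l and Shisa5 had a higher mark with an RNA change that did not pass, but their calls of the mark were lost under 4 and 5 alternatives (adjusted p 0.0929 to 0.349 and 0.0580 to 0.229). The sign was the same in 31 of 33 members and in 53.9% of 14395 genes. With 32 of the 33 members positive in each assay, 31 is the fewest possible. The shared sign therefore does not link RNA and mark gene by gene. Across the 33 genes, which are not independent replicates, Spearman's rho between the log2 fold changes of RNA and mark was 0.52 and Pearson's r 0.31, and over all genes they were 0.25 and 0.30. The orders differ at the top: Ifi44 was rank 1 in RNA and rank 8 in the mark, Mx1 rank 8 and 32, Ly6a rank 7 and 27, and Sp100 rank 23 and 3.

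**Figure D2:**
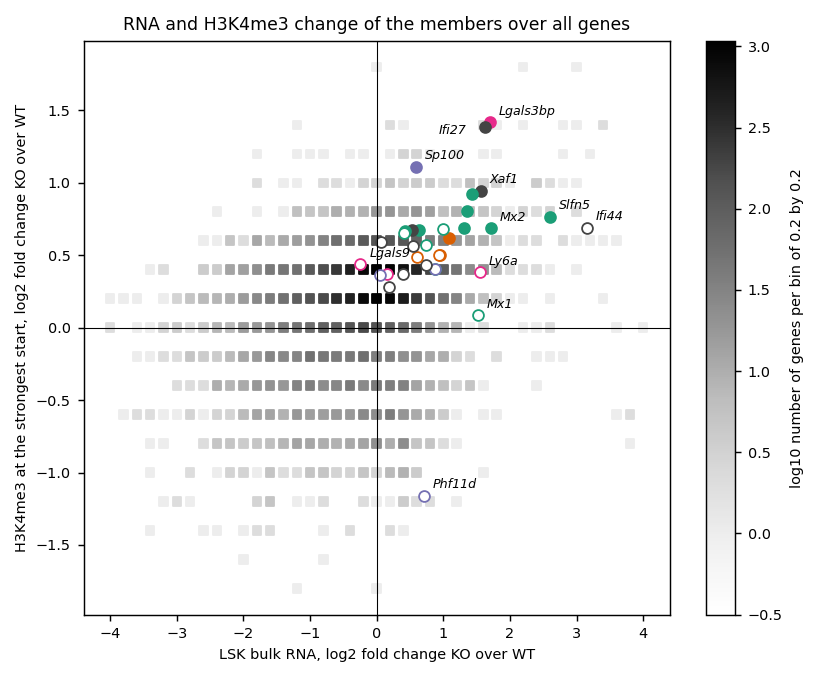
Log2 fold change of LSK bulk RNA (horizontal axis) against that of H3K4me3 at the strongest window (vertical axis), KO over WT, for the 33 members (circles, coloured by role) over all genes (grey squares, number per bin on a log10 scale). Filled circles are the 13 members called higher in both, and Phf11d lies alone below 0 on the vertical axis.

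Whole-liver RNA asked whether the members also differed outside the sort. All 32 members tested in INPUT had a positive log2 fold change (Ly6a, with 10 and 3 counts in livers labelled KO and 0 in both labelled WT, did not pass the filter), and 8 were called higher and none lower, against 0.614% of 14657 genes called higher. The median over members was 2.55, and the same with the 3 members at 0 counts in WT set at their bounds, and 0.02 over all genes. In 29 of the 32 both livers labelled KO were above both labelled WT, as in 22.1% of all genes. Ifi27, Ifi44 and Slfn8, the 3 at 0 counts in WT, passed the filter only through libraries labelled KO. Their change could not have been negative, so they add nothing to the counts of 32 and 29. Mx2, with 1 count in the WT livers, and Phf11d, with 2, passed the filter in the same way.

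Ifi27 had 43.9 and 33 CPM in livers labelled KO and 0 counts in both labelled WT. With 3 counts as the floor of the WT group it was at least 79.2-fold higher (adjusted p 0.0204 in edgeR). Ifi44, with 15.4 and 7.95 CPM in livers labelled KO, and Slfn8, with 5.71 and 2.75 CPM, were also at 0 counts in both WT livers; they were at least 24.5-fold and 8.90-fold higher, but did not pass (adjusted p 0.0526 and 0.144). Lgals3bp had 138 and 183 CPM in livers labelled KO, against 16.6 and 12.3 CPM in those labelled WT, or 3.47 on the log2 scale (SE 0.51, adjusted p 0.0116). Parp14, an ADP-ribosyl transferase, had 71.7 and 78.3 CPM in livers labelled KO, against 8.88 and 5.31 CPM in those labelled WT (3.39, SE 0.42, adjusted p 0.00462). The livers did not overlap in any of these genes.

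Rnf213 had 544 and 791 CPM in livers labelled KO, against 94.2 and 46.6 CPM in those labelled WT (3.24, SE 0.32, adjusted p 0.000863). The other members called were Parp9 (2.69), Dtx3l (2.16), Ly6e (1.95) and Helz2 (1.84). Ly6e had 160 and 140 CPM in livers labelled KO, against 22.4 and 55.2 CPM in those labelled WT, while in LSK RNA its groups overlapped; its INPUT call was lost under 4 alternatives (adjusted p 0.0521 to 0.144). Of the 32 members tested in INPUT, 25 were called higher in LSK RNA and 8 in INPUT. Called in both were 7, which is 28% of the 25 and 87.5% of the 8. With most members called in LSK RNA, such an overlap needs no link between the assays, and it was not tested. Helz2, Ifi27 and Lgals3bp were called higher in LSK RNA, in the mark and in INPUT, but without INPUT KO 2 none of the 3 was called in INPUT (adjusted p 0.0883 for Helz2, 0.0785 for Ifi27 and 0.0835 for Lgals3bp in edgeR). The call of Helz2 for the mark was lost under 2 alternatives (adjusted p 0.0988 and 0.148), and that of Ifi27 in INPUT also without INPUT KO 1 (adjusted p 0.0869).

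The number called in INPUT depends on the libraries: it was 2 without INPUT KO 2, 4 without INPUT KO 1 and 11 without INPUT WT 2. DESeq2 called 16 members, against 2.65% of the genes it tested called higher, and 18 were called with no filter on low counts, against 1.5%. Beside the members, 5 hepatocyte genes summed to 17591 to 18337 CPM in livers labelled KO and 9178 to 12084 CPM in those labelled WT (2 of 5 called higher). The 8 macrophage genes summed to 507 to 552 CPM in livers labelled KO and 210 to 238 CPM in those labelled WT (1 of 8 called higher), the 5 granule genes to 411 to 475 CPM in livers labelled KO and 166 to 188 CPM in those labelled WT (Mpo and Ms4a3 called higher; Elane, at 6.25 CPM in KO and 19.6 CPM in WT, did not pass), and the 5 erythroid genes to 698 to 834 CPM in livers labelled KO and 1126 to 1321 CPM in those labelled WT (0 called). The part of these cell types in the members' rise was not tested. All 11 interferon ligand genes had 0 counts in the 4 INPUT libraries, which allows up to 3 counts in each.

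**Figure D3:**
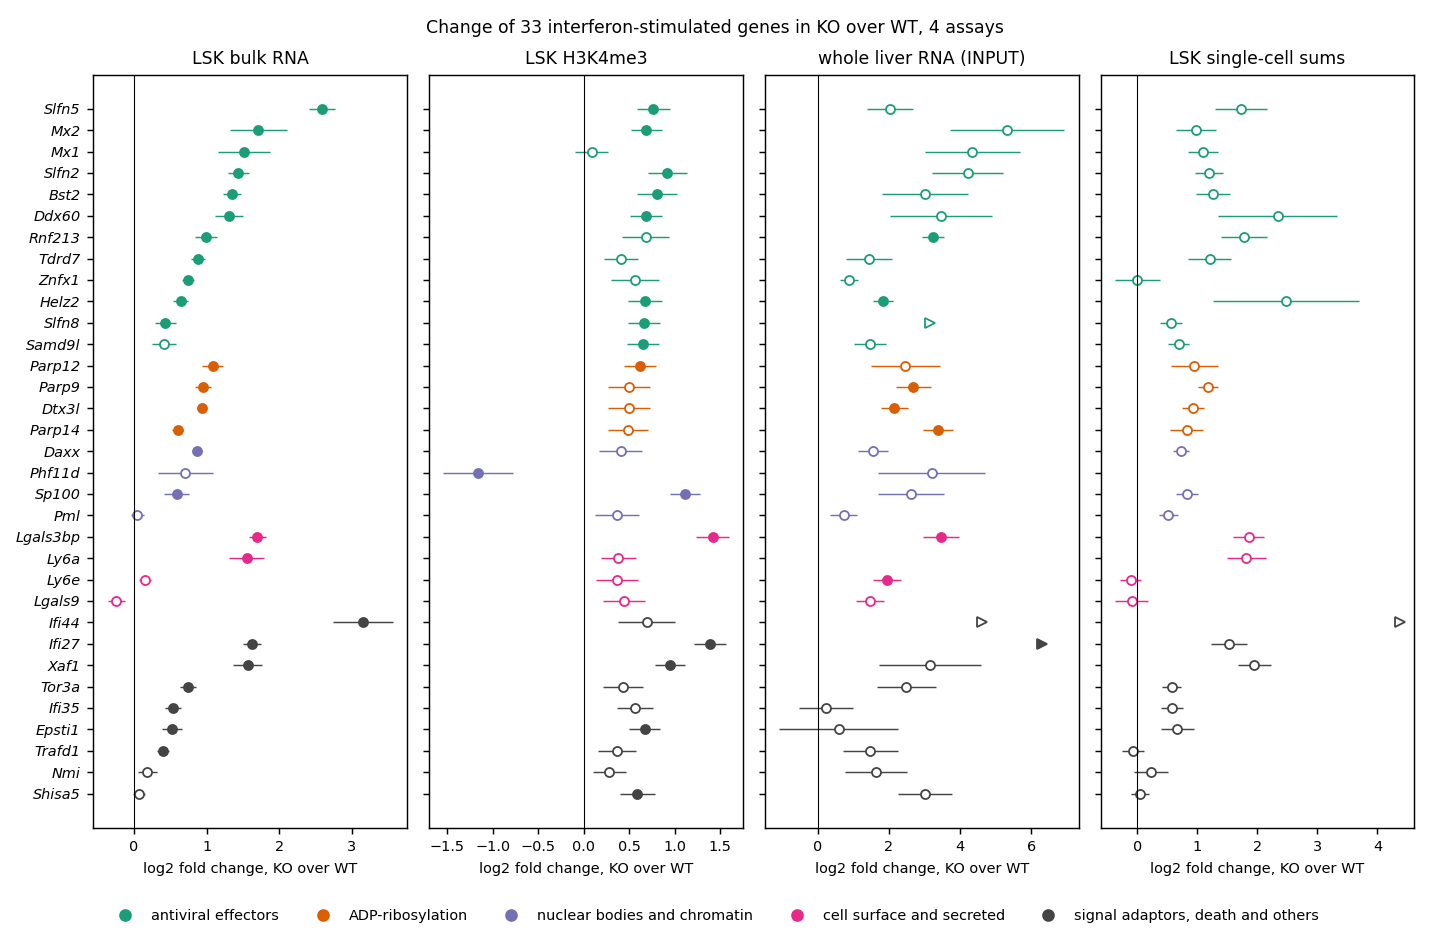
Log2 fold change, KO over WT, of each member (rows, coloured by role) in LSK bulk RNA, LSK H3K4me3, INPUT and LSK single-cell sums, with bars of 1 SE. Filled symbols passed an adjusted p of 0.05, triangles are lower bounds where WT had 0 counts, and Phf11d (single-cell) and Ly6a (INPUT) were not tested; no member lies below 0 in INPUT, and Phf11d does so in H3K4me3.

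J2 pull-down over INPUT asked which of these transcripts were held by the antibody against double-stranded RNA. Few members passed in either direction. In livers labelled KO, 2 of 32 members were called higher in J2 and 5 lower, against 15.3% and 15.1% of all genes. The share called lower was near that of all genes. In livers labelled WT, 1 was higher and 1 lower, against 13.2% and 10.7%. The median SE of the members was 0.76 in livers labelled KO and 0.78 in those labelled WT on the log2 scale. A member that did not pass may thus still differ between J2 and INPUT. The comparison within each genotype uses the same livers as INPUT, so its values are set beside the INPUT values and not correlated with them.

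Dtx3l, a ubiquitin ligase, was the member with the clearest enrichment in both genotypes. In livers labelled KO it had 837 and 903 CPM in J2, against 104 and 137 CPM in INPUT (2.85 on the log2 scale, SE 0.37, adjusted p 0.000161 in edgeR). In livers labelled WT it had 258 and 247 CPM in J2, against 40.9 and 12.7 CPM in INPUT (3.23, SE 0.39, adjusted p 0.000154). J2 and INPUT did not overlap in either genotype. Its neighbour Parp9, which overlaps it, had 51.5 and 58.8 CPM in J2 and 57.6 and 56.6 CPM in INPUT of livers labelled KO, with no separation. Samd9l, an antiviral and growth-restraining gene, had 68.8 and 68.5 CPM in J2 and 19.1 and 27.5 CPM in INPUT of livers labelled KO (1.56, SE 0.43, adjusted p 0.0161, lost without INPUT KO 1, J2 KO 1 or J2 KO 2 at 0.0917 to 0.107). In livers labelled WT the change of 0.78 did not pass (adjusted p 0.244).

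The members lower in J2 included Ifi27 and Lgals3bp, which were also called higher in INPUT; both comparisons use the same INPUT libraries. Ifi27 had 0.980 and 2.65 CPM in J2, against 43.9 and 33 CPM in INPUT of livers labelled KO (-4.39, SE 0.88, adjusted p 0.00435), and had 0 counts in both J2 and both INPUT libraries labelled WT. Lgals3bp had 15.4 and 19.4 CPM in J2, against 138 and 183 CPM in INPUT of livers labelled KO (-3.20, SE 0.49, adjusted p 0.000494). Trafd1 had 3.59 and 6.89 CPM in J2 and 19.4 and 36.1 CPM in INPUT of livers labelled KO (-2.40, SE 0.78, adjusted p 0.0377), a call lost under 7 alternatives (adjusted p 0.0517 to 0.255). The calls of J2 over INPUT in livers labelled KO numbered 4 without INPUT KO 1, J2 KO 1 or J2 KO 2. For Ifi27, Lgals3bp and Trafd1, which rose in LSK RNA, J2 was below INPUT in both livers labelled KO.

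Lgals9 was lower in J2 in both genotypes. It had 38.6 and 54.1 CPM in J2 and 134 and 201 CPM in INPUT of livers labelled KO (-1.86, SE 0.39, adjusted p 0.00373), and 15.1 and 7.05 CPM in J2 and 74.5 and 45.8 CPM in INPUT of livers labelled WT (-2.43, SE 0.42, adjusted p 0.00155). Ly6e, a membrane protein that affects virus entry, had 76.3 and 57.8 CPM in J2 and 160 and 140 CPM in INPUT of livers labelled KO (-1.16, SE 0.38, adjusted p 0.0394), and its call was lost under 5 alternatives (adjusted p 0.0968 to 0.238). All 3 surface or secreted members tested were thus called lower than INPUT in livers labelled KO, against 15.1% of all genes. With 3 genes this does not describe the group, and 21 of the 32 members tested had a negative log2 fold change. Slfn5, whose 174 and 156 CPM in J2 stood against 42.9 and 72.5 CPM in INPUT of livers labelled KO, did not pass (1.52, adjusted p 0.0706) but did with the animal as a replicate block (adjusted p 0.0406).

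The difference between the genotypes in J2 enrichment was called for none of 32 members and for 0.0% of 14657 genes by the quasi-likelihood test of edgeR. At an unadjusted p under 0.05 in that test there were 3 of 32 members, near the share of all genes (1340, or 9.14%). These were Lgals3bp (-2.52), Shisa5 (-2.68) and Daxx (-1.61), all with less enrichment in livers labelled KO. DESeq2 called 0 members. The difference could not be estimated for Ifi27, which had 0 counts in all libraries labelled WT. For Dtx3l the difference was -0.37 (SE 0.51, adjusted p 0.867). The members' summed CPM, a share of each library, was higher in livers labelled KO in both J2 and INPUT: it was 2716 and 3138 in J2 and 2043 and 2672 in INPUT of livers labelled KO, and 828 and 795 in J2 and 542 and 530 in INPUT of livers labelled WT. Dtx3l and Rnf213 made up 837 and 737 CPM of the 2716 CPM in J2 KO 1. Across 32 members, Spearman's rho of the LSK RNA change was 0.09 with J2 over INPUT in livers labelled KO; none is given for livers labelled WT or for the difference, where Ifi27 has no estimate. Dtx3l, rank 1 for J2 over INPUT in livers labelled KO, was rank 15 in LSK RNA.

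**Figure D4:**
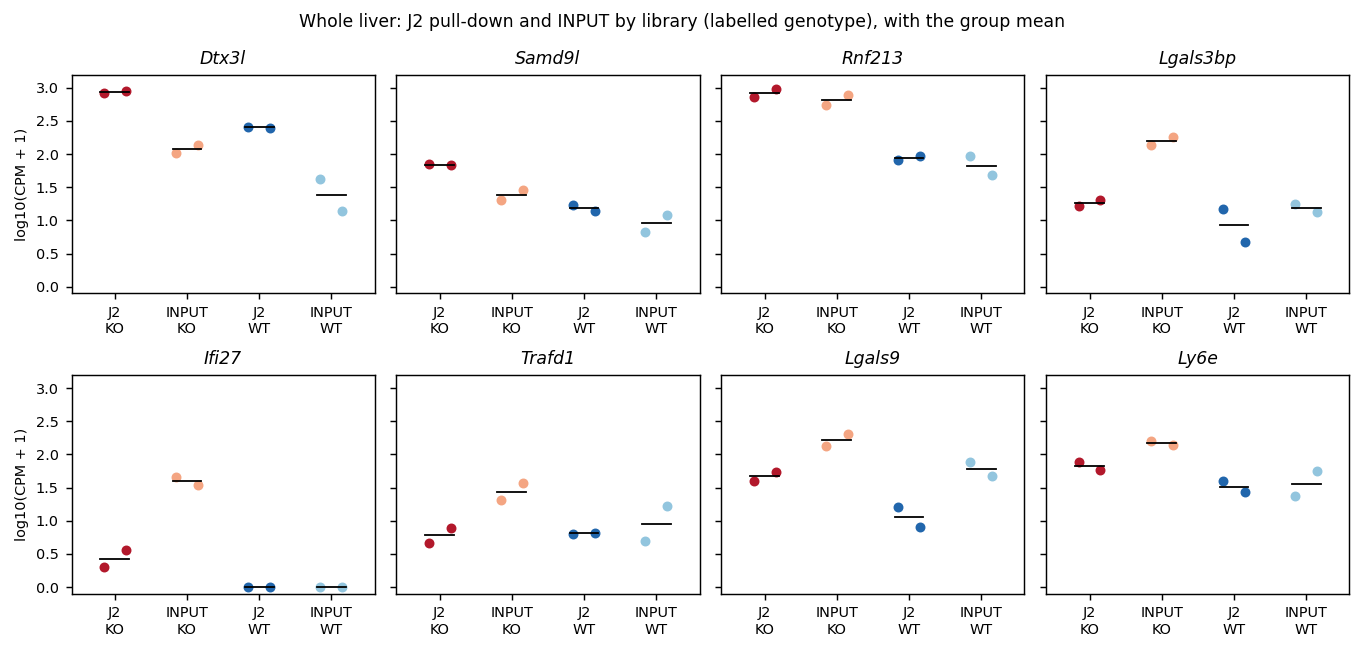
Level, as log10(CPM + 1), of the 7 members called in J2 over INPUT in livers labelled KO and of Rnf213, for J2 and INPUT libraries by labelled genotype (points) with the group mean (lines). Dtx3l is higher in J2 than in INPUT in both genotypes, Ifi27, Lgals3bp, Trafd1 and Ly6e are lower in J2 in livers labelled KO, and Lgals9 is lower in J2 in both.

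Single LSK cells, labelled with the same sort markers, gave a second set of RNA libraries. Counts were summed over the 15678 of 15707 deposited cells that had at least 500 counts and under 20% mitochondrial counts, and 0 of 32 members were called by the quasi-likelihood test of edgeR on the sums of 2 against 2 libraries, where 0.00748% of 13374 genes were called higher. At an unadjusted p under 0.05 there were 22 members, against 14.4% of all genes, and DESeq2 called 15 members, all higher, against 5.45% of the genes it tested: Bst2, Daxx, Dtx3l, Ifi27, Ifi35, Lgals3bp, Ly6a, Mx1, Parp9, Rnf213, Samd9l, Slfn2, Slfn5, Sp100 and Xaf1. The median log2 fold change was 0.94 over members, and in 26 of 32 both libraries labelled KO were above both labelled WT, as in 25.0% of genes. Summed CPM of the granule genes was 937 to 1585 in libraries labelled KO and 697 to 792 in those labelled WT (0 of 5 called), and its part was not tested.

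Lgals3bp had 39.7 and 55.7 CPM in libraries labelled KO, against 11.1 and 15.2 CPM in those labelled WT (log2 fold change 1.85, adjusted p 0.221). Xaf1 had 37.8 and 46.3 CPM in libraries labelled KO, against 8.32 and 13.3 CPM in those labelled WT (1.95, adjusted p 0.221), and Ly6a had 45.5 and 57.2 CPM in libraries labelled KO, against 10.2 and 18.8 CPM in those labelled WT (1.82, adjusted p 0.233). The groups overlapped in none of the 3 genes. Ifi44 was at 2.13 and 5.38 CPM in libraries labelled KO and at 0 counts in both labelled WT, and was at least 20.8-fold higher with 3 counts as the floor of the group (adjusted p 0.246). Lgals9 (-0.09), Ly6e (-0.11) and Trafd1 (-0.07) had overlapping groups. Across 32 members, Spearman's rho with the bulk log2 fold changes was 0.83 (0.67 over 11847 genes).

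Each cell was also put with the lineage list (granule, stem, lymphoid, erythroid or megakaryocyte genes) of which it held most counts, at least 2, and classes were summed where every library had at least 50 such cells. These are ranges of marker counts, not types, and no cell was removed as a doublet. Of the cells with stem genes, 46 and 75 (KO) and 50 and 98 (WT) lay at the minimum. Cells with granule genes numbered 2437 and 1530 in libraries labelled KO and 769 and 1026 in those labelled WT, cells with stem genes 65 and 182 (KO) and 112 and 187 (WT), and cells with erythroid genes 436 and 253 (KO) and 337 and 335 (WT). Among cells with granule genes, 1 of 30 members was called higher, Xaf1, against 0.124% of genes. Its level was 36.0 ± 3.45 CPM in libraries labelled KO and 7.68 ± 0.817 CPM in those labelled WT (SD, n = 2 each; 2.23 on the log2 scale, SE 0.24, adjusted p 0.0139 in edgeR). Among cells with stem genes, 2 of 21 were called, Ly6a and Ifi27, against 0.116%. Ly6a was at 161 ± 48.2 CPM in libraries labelled KO and 19.5 ± 16.3 CPM in those labelled WT (SD, n = 2 each; 2.77, SE 0.46, adjusted p 0.0198 in edgeR). Ifi27 was at 212 ± 10.1 CPM in libraries labelled KO and 62.2 ± 25.4 CPM in those labelled WT (SD, n = 2 each; 1.72, SE 0.31, adjusted p 0.0359 in edgeR). Neither call held without WT 2 (edgeR adjusted p 0.780 for both), and that of Ifi27 was also lost without KO 2 and without WT 1. Among cells with erythroid genes, 0 of 25 were called (0.0122% of genes), with 10 at an unadjusted p under 0.05, against 5.23% of genes. Leaving out 1 library made the count with granule genes 5 to 10.

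The medians over members were 0.87, 0.71 and 0.99 in cells with granule, stem and erythroid genes, and all 25 members tested in cells with erythroid genes had a positive log2 fold change. The difference of the change between classes was called for no member (lowest adjusted p 0.979, 3 members at an unadjusted p under 0.05 between cells with granule genes and cells with stem genes). Summed CPM of members was 2474 and 2259 in cells with stem genes of libraries labelled KO, against 1726 and 1487 CPM in those labelled WT. In cells with granule genes it was 1580 and 1647 CPM (KO) and 1312 and 1200 CPM (WT). In cells with erythroid genes it was 1268 and 1850 CPM (KO) and 727 and 1104 CPM (WT). The summed levels overlapped in none of these classes. No share over all genes was taken for the signs or the sums within a class.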

How the data were processed

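Per the labels and the series text, the authors deposited raw counts: reads per gene (bulk RNA, INPUT and J2), reads in 3 kb windows around transcript starts (H3K4me3), and counts per gene and cell. The submitters' processing notes name the build GRCm38.p5 and Seurat 3.0, edgeR, bedtools, Picard 2.9.0, Bowtie2 2.2.9 and STAR 2.5.3a, with no role for each; the strand setting of the counting is not given in the sources used here. The members and lists were chosen with earlier results of these data known. Each whole table was fitted in edgeR 4.0.16 (R 4.3.3) with filterByExpr, TMM scaling and the quasi-likelihood test, and p-values were adjusted by Benjamini and Hochberg over all features kept, at 0.05. CPM are per TMM-scaled library. INPUT and J2 were fitted together with 4 group means. Of 130983 deposited windows, 123052 were distinct, and the one with the highest mean count was kept for each of 52453 genes. Cells needed at least 500 counts and under 20% mitochondrial counts, 0 to 3 barcodes were shared between pairs of libraries, and no doublet caller was run. Sums per library were tested. Libraries were grouped by their labels. Values in every library are given for the 8 largest called changes in bulk, the 4 largest in each other comparison, members called lower or in opposite directions, and Ly6a; Daxx, Pml, the bulk and single-cell values of Lgals9, Mx1 in the mark, and Slfn5 and Parp9 in J2 were added after their values were seen. Alternatives were DESeq2 1.42.0, RLE scaling, library size alone, no filter, marked windows alone, the replicate block and leaving out each library. In bulk RNA, deviations of same-numbered KO and WT libraries correlated at 0.34, 0.12 and 0.12, all over a limit of 0.1. Those of KO 2 and WT 3, with different numbers, correlated at 0.28, and the other different-numbered pairs at -0.33 to 0.02. The correlations thus do not settle whether the numbers pair the libraries. The main fits used no pairing, and the replicate block was an alternative. Depth sets the precision: with 3100910 to 5251496 counts per liver library, a gene at 0 counts may hold up to 3, and this floor covers counting error only. Scripts were tested on simulated data. The values of 1 signal gene are not reported here.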

Additional observations from a re-analysis of the deposited data

How the results depend on the processing

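No member called in any comparison changed sign under the alternatives run. The bulk count of 26 stayed at 24 to 29, and was 28 with the replicate block, which paired libraries by number. The H3K4me3 count of 16 was 8 with marked windows alone and 31 with the replicate block, and 6 to 18 with 1 library left out; members higher in RNA and mark numbered 8 with marked windows alone. The INPUT count of 8 was 16 by DESeq2, 18 with no filter on low counts, 8 with the replicate number as a block, since the animal could not be fitted, and 2 to 11 with 1 library left out. J2 over INPUT had 4 to 10 members in livers labelled KO and 2 to 5 in those labelled WT with 1 library left out, and the difference between genotypes had 1 with no filter. Single-cell sums had 15 by DESeq2 and 6 with the replicate block. The classes with granule, stem and erythroid genes had 14, 4 and 11 members with the replicate block, and 5 to 10, 0 to 3 and 0 to 4 with 1 library left out, where a lone library is assumed to vary like the others; with at least 3 marker counts the stem class could not be tested. The numbers of H3K4me3 (r = 0.40) and single-cell libraries (r = 0.37) only share a number, with 2 pairs each. With plain library sizes in place of TMM the all-feature median became -0.40 in H3K4me3 (members 0.35) and 0.29 in INPUT, and it was 0.33 for J2 over INPUT in livers labelled KO, 0.52 in those labelled WT and -0.23 for the difference. With 2 libraries a group and 0 counts in WT livers, depth limits the size of the INPUT changes of Ifi27, Ifi44 and Slfn8.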

Other observations

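In LSK RNA 26 of 33 members rose, while of 11 receptor and signal genes 4 were called higher and 3 lower. With only 11 receptor and signal genes, their counts of 4 and 3 cannot be set apart from the shares over all genes, at 21.6% called higher and 22.6% lower. The receptor subunit Ifnar2 and the kinases Jak2 and Tyk2 were called lower, at -0.18 (SE 0.06), -0.40 (SE 0.11) and -0.27 (SE 0.09) on the log2 scale, with edgeR adjusted p of 0.0434, 0.0146 and 0.0304, where 22.6% of all genes were called lower. The factor Irf9 and the receptor subunits Ifngr1 and Ifngr2 were called higher, at 0.70 (SE 0.07), 0.85 (SE 0.07) and 0.42 (SE 0.07), with edgeR adjusted p of 0.000137, 4.14e-05 and 0.00105, where 21.6% of all genes were called higher. Over all distinct start windows of the 33 members, rather than the strongest of each, 74 of 176 were called higher for H3K4me3 and 6 lower; windows of 1 gene overlap and are not independent.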
